A study of Homo sapiens with 8 samples.

Results

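The cytosolic ribosomal protein genes were taken as all gene symbols formed from RPL or RPS and a number, with an optional A or X at the end, together with RPLP0, RPLP1, RPLP2 and RPSA. This rule found 77 of the 19952 symbols listed, 46 of the large and 31 of the small ribosomal subunit. They were followed in 8 RNA-seq libraries of 2 human uveal melanoma (UVM) cell lines. In 92.1 cells, a short hairpin RNA against A3B (APOBEC3B, a cytidine deaminase that acts on single-stranded DNA) gave the group shA3B, and shCtrl was its control, which the study's methods describe as empty vector. In MEL290 cells, A3B was overexpressed (A3B OE), from full-length A3B in the pHAGE-puro vector according to the methods, and NC was the negative control. Each of the 4 groups had 2 libraries, and the labels do not say whether these came from separate cultures, so that p-values measure only the spread between libraries, which may be technical. Each perturbation was made in 1 line only, and the labels do not name the hairpin, which the methods place in the pGIPZ-TurboGFP-puro vector. The comparisons ask how the ribosomal protein mRNAs stood when A3B was lowered or raised, and how they differed between the lines.

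The ribosome is built from ribosomal RNA and one copy of most of these proteins, so that the cell must make the proteins in matched amounts. Their genes are among the most strongly transcribed of any cell, and their mRNAs typically begin with a cytosine followed by a run of pyrimidines, the 5′ terminal oligopyrimidine (TOP) tract, through which the mTOR pathway and the RNA-binding protein LARP1 control translation. RPLP0, RPLP1 and RPLP2 form the stalk of the large subunit that recruits translation factors, and RPSA, which is also known as the laminin receptor, belongs to the small subunit.

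APOBEC3B, the perturbed gene, was at 35.9 and 32.3 FPKM in shCtrl, 1.98 and 2.37 in shA3B, 2.67 and 2.19 in NC, and 28.4 and 27.5 in A3B OE. FPKM counts fragments per kilobase of transcript, scaled to the mapped fragments of the library. A rough estimate from low values gave 17600000 to 31600000 fragments per library. All 8 melanocyte markers examined reached 1 FPKM in every 92.1 library, where they summed to 7116 to 8713 FPKM. In MEL290 they summed to 15.2 to 20.7 FPKM, 6 or 7 of the 8 stayed under 1 FPKM and 2 to 5 were listed at 0, so that most defining markers of melanocytes, from which uveal melanoma arises, were absent or nearly so in the MEL290 libraries. The summed FPKM of 6 fibroblast markers was 6.16 to 8.33 in 92.1 and 27.2 to 41.0 in MEL290, of 4 epithelial markers 0.590 to 2.75 over all libraries, and of 4 immune markers 14.5 to 35.0. Most of these sums came from MITF, COL1A1 and CD68 in MEL290. The fibroblast markers LUM and PDGFRA went the other way, with LUM at 3.58 to 5.03 FPKM in 92.1 and 0 to 0.126 in MEL290. The part of these markers in any result was not tested.

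The start of the transcript is shown for the members on which the results turn, since the TOP tract is the sequence feature that these genes share. Of the 77 genes, 62 had a start listed in the RefSeq promoter table (GRCh38.p14), 77 starts in all. A C at the start followed by pyrimidines, at least 5 bases long, stood at 46 of these 77 starts (59.7%), against 4.07% of all 35116 listed starts. All 6 members on the long arm of chromosome 19 that had a listed start had the tract. In the windows here, of 10 bases before and 20 bases from the start on, capitals mark the tract.
RPS16: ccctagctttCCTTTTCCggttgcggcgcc
RPS19: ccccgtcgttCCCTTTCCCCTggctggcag
RPL28: cctcgccttcCTCTTTCCgtctcaggtcgc
RPS9: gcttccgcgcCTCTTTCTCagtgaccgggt
RPL18: agcccgttctCTCTTTCCggacctggccga
RPL13A: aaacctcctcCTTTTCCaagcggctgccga
RPS14: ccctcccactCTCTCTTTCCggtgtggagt
RPL26: gcgtgtagttCTCTTCCCTTTTgcggccat
RPL4: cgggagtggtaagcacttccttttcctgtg
RPS28: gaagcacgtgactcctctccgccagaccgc

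The windows lie at chr19:39435930-39435959 (RPS16, minus strand), chr19:41860245-41860274 (RPS19, plus strand), chr19:55385922-55385951 (RPL28, plus strand), chr19:54200848-54200877 (RPS9, plus strand), chr19:48619159-48619188 (RPL18, minus strand), chr19:49487598-49487627 (RPL13A, plus strand), chr5:150449720-150449749 (RPS14, minus strand), chr17:8383174-8383203 (RPL26, minus strand), chr15:66504836-66504865 (RPL4, minus strand) and chr19:8321486-8321515 (RPS28, plus strand). The RPL4 and RPS28 windows have no capitals because the listed start was not a C followed by pyrimidines. In RPS28 a pyrimidine run begins at the base after the listed start, and in RPL4 a few bases downstream of it. The motif CTTCCGG, the core bound by ETS factors such as GABPA, was searched on both strands in the 250 bases before and 50 from the start on, and was found at 26 of the 77 member starts (33.8%) and 10.3% of all starts. At 2 of the member starts with the tract, the motif overlapped the first 5 bases of the tract, and overlap with later bases was not counted.

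The ribosomal protein genes held a larger share of the summed FPKM in 92.1 than in MEL290. It was 25.5% and 25.0% in shCtrl and 24.9% and 24.4% in shA3B. In MEL290 it was 16.8% and 17.3% in NC and 17.1% and 16.8% in A3B OE. The 92.1 libraries did not overlap with the MEL290 libraries. Both shA3B libraries lay below both shCtrl libraries, whereas NC and A3B OE overlapped. The group means were 25.2% ± 0.350, 24.6% ± 0.314, 17.0% ± 0.303 and 17.0% ± 0.243 (SD, n = 2 each). Without the mitochondrially encoded genes in the total, shCtrl (30.3% and 29.4%) and shA3B (29.7% and 29.2%) overlapped. The 13 mitochondrially encoded mRNAs, which compete for the same total, held 15.8% and 15.0% in shCtrl, 16.2% and 16.5% in shA3B, 13.3% and 12.8% in NC, and 10.9% and 11.2% in A3B OE. The tables of the lines named their gene column differently and may have been made in separate runs, which bears on every level set across the lines. In such bulk libraries, fewer cells with an mRNA and less of it per cell cannot be told apart.

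**Figure D1:**
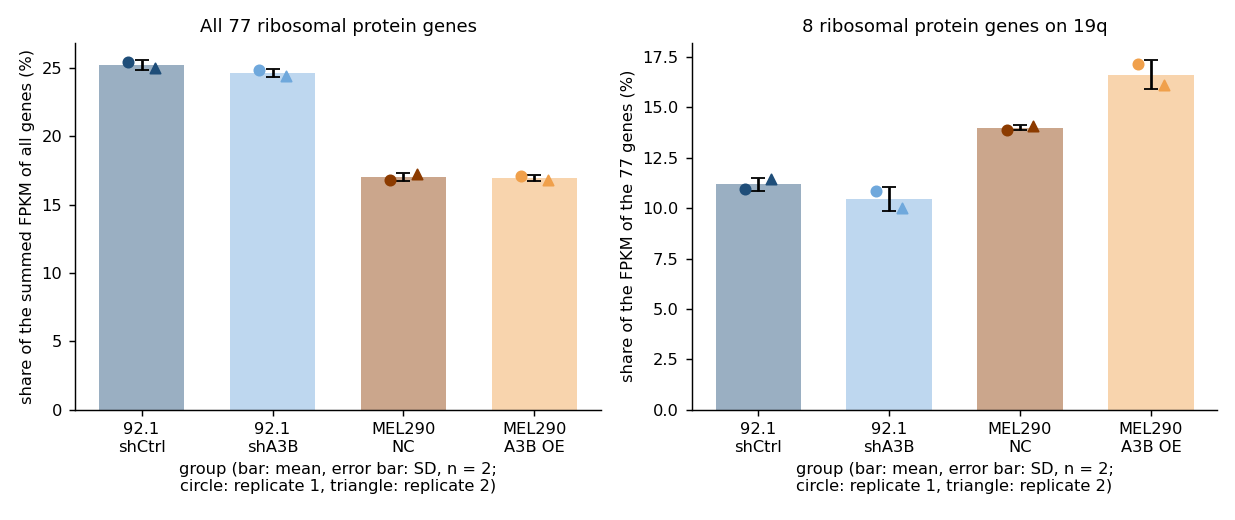
Share of the summed FPKM of all genes held by the 77 ribosomal protein genes (left) and share of the FPKM of these 77 genes held by the 8 on the long arm of chromosome 19 (right), in percent, for the 4 groups. Bars are means, error bars SD (n = 2), circles and triangles the libraries; the left bars stand near 25% in 92.1 and 17.0% in MEL290, and the right bars are highest in A3B OE at 16.6%.

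No member was listed at 0 in any library, and the highest stood 9.62 to 15.4 times above the lowest within a library. The median member was at 1802 ± 31.8 FPKM in shCtrl, 1697 ± 93.8 in shA3B, 1325 ± 31.0 in NC and 1256 ± 33.4 in A3B OE (SD, n = 2 each). By the mean over all 8 libraries, the highest members were RPS27, RPS18, RPS2, RPS19 and RPL13, and the lowest were RPL22, RPS4X, RPS26, RPL23A and RPL5. RPS27, a zinc-finger protein of the small subunit, was at 6439 and 4879 FPKM in shCtrl, 6446 and 5129 in shA3B, 2848 and 2968 in NC, and 2763 and 3029 in A3B OE. RPS18, which lies at the head of the small subunit, was at 5798 and 5560.4 in shCtrl, 5796 and 5067 in shA3B, 2675 and 2832 in NC, and 2535 and 2618 in A3B OE. Both were higher in every 92.1 library than in any MEL290 library. RPS18 was lower in both A3B OE libraries than in NC without being called (-0.10 on the log2 scale, adjusted p = 0.35, limma).

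At the low end, RPL22 was at 426 and 423 FPKM in shCtrl, 419 and 429.6 in shA3B, 325 and 292 in NC, and 299 and 307 in A3B OE. RPL22 is a large-subunit protein that cells can lose and that has a close paralog, RPL22L1. RPS4X, a small-subunit gene on the X chromosome, was at 793 and 837, 823 and 782, 448 and 453, and 402 and 394 FPKM in the same order, and RPL5, which carries the 5S ribosomal RNA together with RPL11, was at 808 and 713, 774 and 745, 885 and 909, and 829 and 822. The order of the 77 genes was nearly the same in shCtrl and shA3B (Spearman 0.99) and in NC and A3B OE (0.97), and less alike in shCtrl and NC (0.51). These correlations are across genes, which are not replicates and share their libraries.

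**Figure D2:**
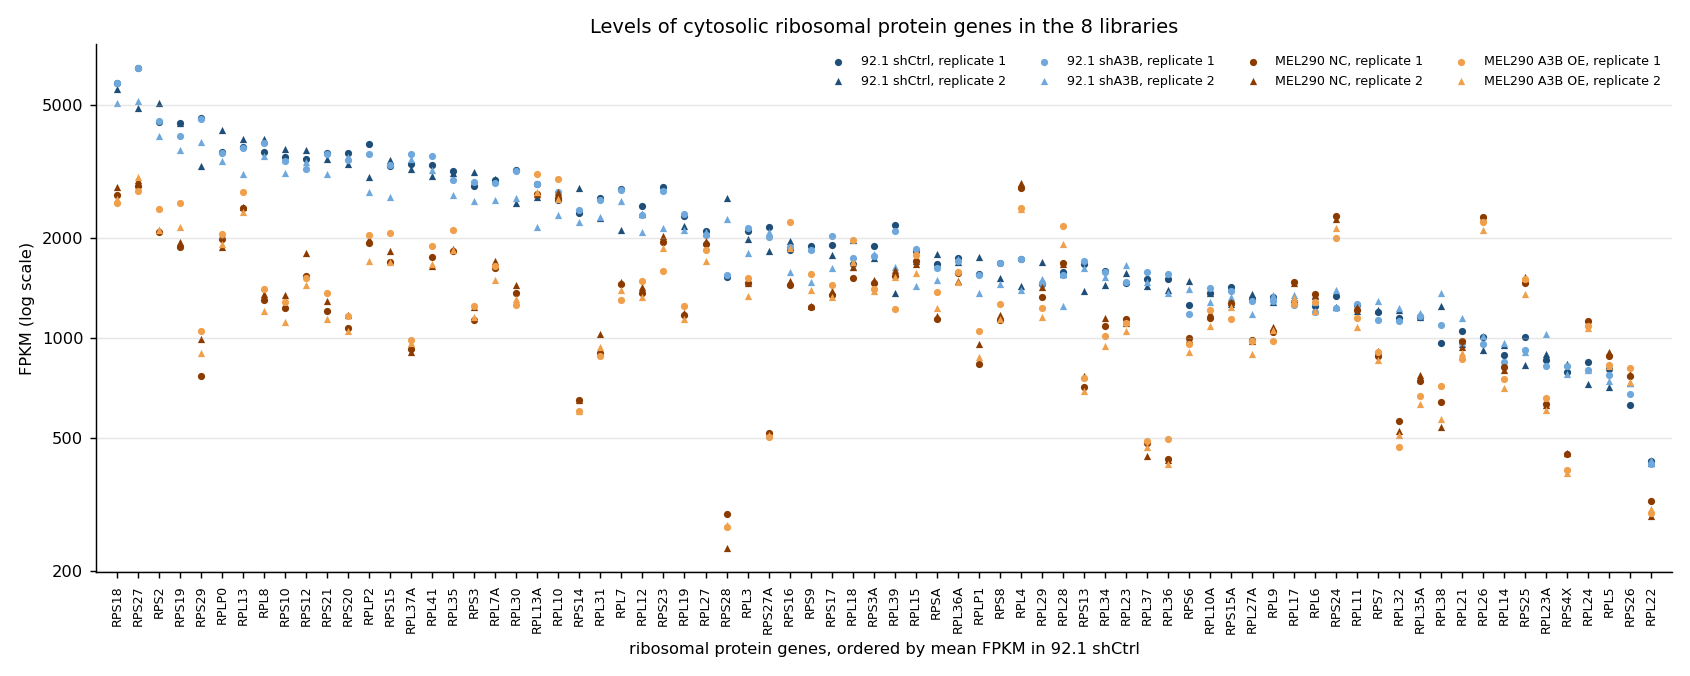
FPKM on a log scale of the ribosomal protein genes named on the axis, ordered by their mean in 92.1 shCtrl, with 1 point per library. The 92.1 points (blue) fall along the order, while many MEL290 points (brown and orange) fall below it, down to 234 FPKM for RPS28, and those of RPL4, RPL26 and RPS24 stand above.

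Replicates of a group agreed closely for most members. The median absolute log2 difference between the replicates was 0.10 in shCtrl, 0.16 in shA3B, 0.05 in NC and 0.13 in A3B OE. RPS28 differed most in both 92.1 groups, with 1529 and 2630.4 FPKM in shCtrl and 1543 and 2268 in shA3B, RPS29 differed most in NC (771 and 993), and RPL38 in A3B OE (716 and 570.0). In A3B OE, 61 of the 77 members were higher in replicate 1, and the part of this library in the rises of that group is given with them.

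Depletion of A3B in 92.1 was not followed by a called change in any ribosomal protein gene. A gene was called where limma, fitted on log2(FPKM + 1) over all genes of a comparison, gave a Benjamini-Hochberg adjusted p under 0.05. Called were 0 of the 77 members, against 0.00862% of the 11605 genes tested (0% higher, 0.00862% lower), and 0 members had an unadjusted p under 0.05. The log2 fold changes ran from -0.20 to 0.15 with a median of -0.02, against 0.00 over all genes, and 27 were positive and 50 negative. The libraries did not overlap for 2 members that were higher in shA3B and 13 that were lower, against 15.3% and 13.3% of all genes.

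The largest rises in 92.1 did not exceed their standard errors. RPL38 had 964 and 1248 FPKM in shCtrl and 1091 and 1362 in shA3B (log2 fold change 0.15, standard error 0.16), and its groups overlapped. RPL7 had 2802 and 2109 against 2785 and 2570.0 (0.14, standard error 0.16), and RPS13 had 1665 and 1382 against 1700.4 and 1616 (0.13, standard error 0.14). For RPL38, RPL7 and RPS13 the sign turned when 1 library was left out.

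The lowest fold changes in 92.1 were those of RPS19, RPS9 and RPLP1. RPS19, which is needed for maturation of the small subunit and is the gene most often mutated in Diamond-Blackfan anemia, had 4396 and 4421 FPKM in shCtrl and 4041 and 3653 in shA3B (-0.20, standard error 0.14, adjusted p = 1, limma). RPS9 had 1881 and 1862 against 1834 and 1468 (-0.19, standard error 0.15), and RPLP1 had 1558 and 1755 against 1543 and 1363 (-0.19, standard error 0.14). In these 3 genes both shA3B libraries lay below both shCtrl libraries, but none was called.

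Overexpression of A3B in MEL290 left most ribosomal protein genes near their control level, with RPS16 higher and RPL4 lower. Of the 77 members, 1 was called higher and 1 lower, against 10.3% and 7.49% of the 11611 genes tested (17.8% in either direction). In either direction 2.6% of the members were called, and this order did not hold in every setting. With quantile normalization 19.5% of the members and 18.4% of all genes were called, with GC content and length accounted for 16.9% and 22.1%, and without A3B OE replicate 2 9.09% and 7.1%. With upper quartile scaling 4 were called higher and 0 lower, and with quantile normalization 6 and 9. An unadjusted p under 0.05 was reached by 12 members. The log2 fold changes ran from -0.23 to 0.48 with a median of -0.03, against 0.00 over all genes, with 30 positive and 47 negative. The libraries did not overlap for 11 members that were higher in A3B OE and 28 that were lower, against 31.5% and 29.7% of all genes.

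RPS16, a small-subunit protein whose C-terminal tail reaches the decoding site, rose from 1442 and 1479 FPKM in NC to 2222 and 1857 in A3B OE (log2 fold change 0.48, standard error 0.09, 1.39-fold, adjusted p = 0.021, limma). Both A3B OE libraries lay above both NC libraries. The adjusted p was 0.061 without the variance trend and 0.10 with no filter on low values. RPL4, a large-subunit protein whose long loop lines the exit tunnel, fell from 2813 and 2917 to 2454 and 2442 (-0.23 on the log2 scale, standard error 0.06, adjusted p = 0.049, limma). RPL4 was not called in 6 other settings or with any 1 MEL290 library left out.

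The next members by size were not called. RPS19 had 1869 and 1937 FPKM in NC and 2544 and 2149.6 in A3B OE (0.30, standard error 0.09, adjusted p = 0.075, limma), and RPL28, of the large subunit, had 1679.6 and 1661 against 2163 and 1916 (0.29, standard error 0.08, adjusted p = 0.050). RPL35A, another Diamond-Blackfan anemia gene, had 742 and 774 against 672 and 632 (-0.22, standard error 0.06, adjusted p = 0.069), and RPL29 had 1329.5 and 1420.2 against 1229 and 1153 (-0.21, standard error 0.07, adjusted p = 0.089). All 4 were without overlap between the groups.

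**Figure D3:**
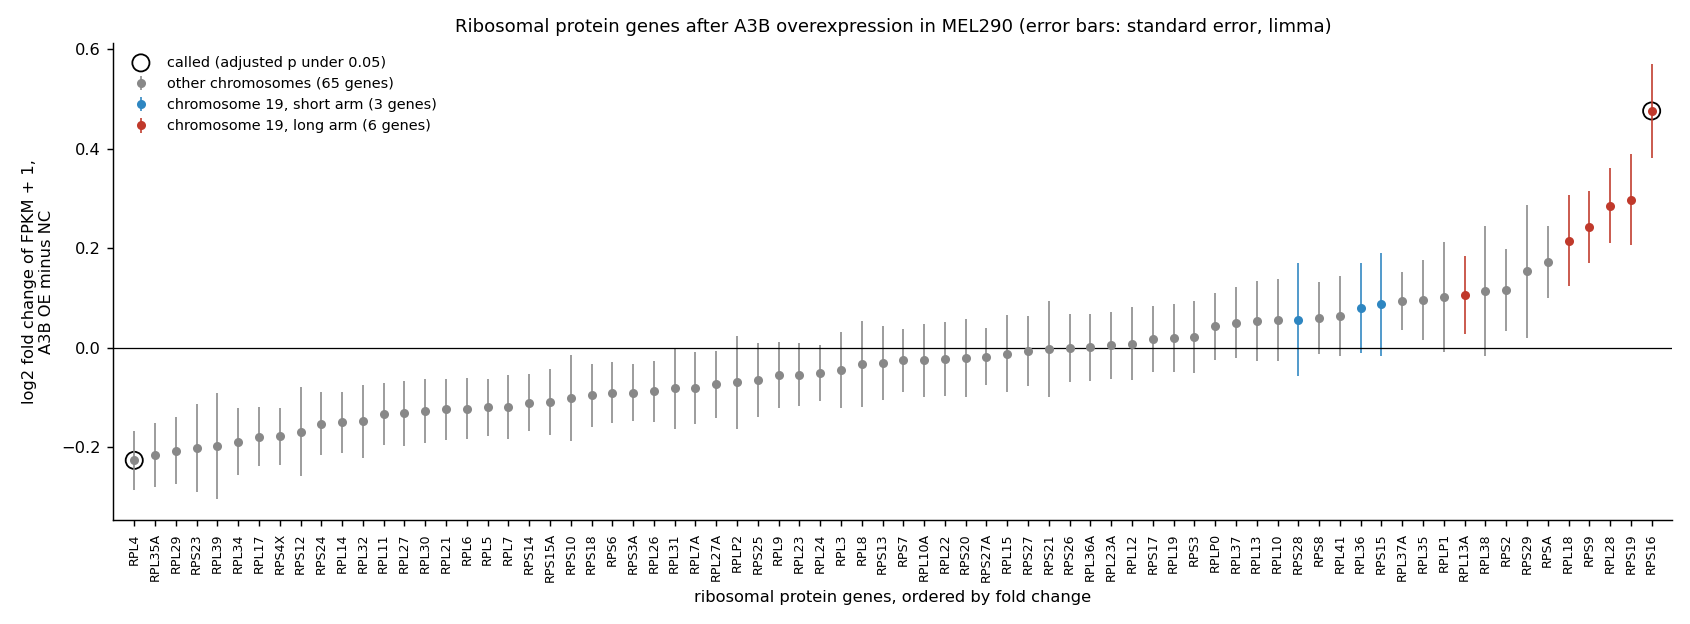
Log2 fold change of FPKM + 1 in A3B OE against NC for the ribosomal protein genes named on the axis, in order, with the standard error of the limma fit; colours mark the arm of chromosome 19 and circles the called genes. The 6 genes of the long arm drawn (red) all lie above 0, between 0.11 and 0.48, and RPL4 lies lowest at -0.23.

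Of the 11 members with both A3B OE libraries above both NC libraries, 8 lay on the long arm of chromosome 19 (starts past 26000000 on GRCh38), a grouping made after the values were known and therefore not tested. They are all the members on that arm, among them RPS16, RPS19, RPL28, RPS9, RPL18 and RPL13A. All 8 had positive log2 fold changes, from 0.11 to 0.48 with a median of 0.23, and 1 of them, RPS16, was called. Of the other 69 members, 22 were positive, the median was -0.05, and 3 did not overlap in the higher and 28 in the lower direction. The 4 members on the short arm of the same chromosome, among them RPL36, RPS15 and RPS28, had a median of 0.07, and all of them overlapped.

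RPS9, of the small subunit, had 1239 and 1244 FPKM in NC and 1551 and 1391 in A3B OE (0.24, standard error 0.07). RPL18 had 1509 and 1628 against 1966 and 1684 (0.21, standard error 0.09), and RPL13A, known also for release from the ribosome after interferon, had 2707 and 2709 against 3112 and 2732 (0.11, standard error 0.08). In each of the genes named here A3B OE replicate 1 was the highest library of MEL290, and all 8 genes kept a positive sign with any 1 library left out, that one included. RPL13A turned to -0.03 with quantile normalization. The 8 genes together held 13.9% and 14.1% of the FPKM of all 77 members in NC and 17.1% and 16.1% in A3B OE, against 11.0% and 11.4% in shCtrl and 10.9% and 10.0% in shA3B. The 441 other tested genes of the long arm had the same median as these members, 0.23, and 23.8% of them were called higher. In 92.1 the 393 others that were tested had a median of -0.07, and 0 were called higher.

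GC content moved with the fold changes. The 8 genes of the long arm had a GC content of 53.6% to 59.3%, with a median of 55.5%, against a median of 47.0% in the other 69 members. Across the 77 genes the Spearman correlation of GC content with the log2 fold change was 0.51 in MEL290 and -0.63 in 92.1, and it was 0.38 in MEL290 over the 69 members elsewhere. The 13 members elsewhere with a GC content of at least 53.6% had a median log2 fold change of 0.02, with 7 positive and 1 without overlap in the higher direction. When the dependence on GC content and length was taken out of every library, all 8 genes of the long arm were positive, with a median of 0.24. The other 69 members then had a median of -0.03, with 22 positive. The part of GC content in these fold changes was not tested.

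**Figure D4:**
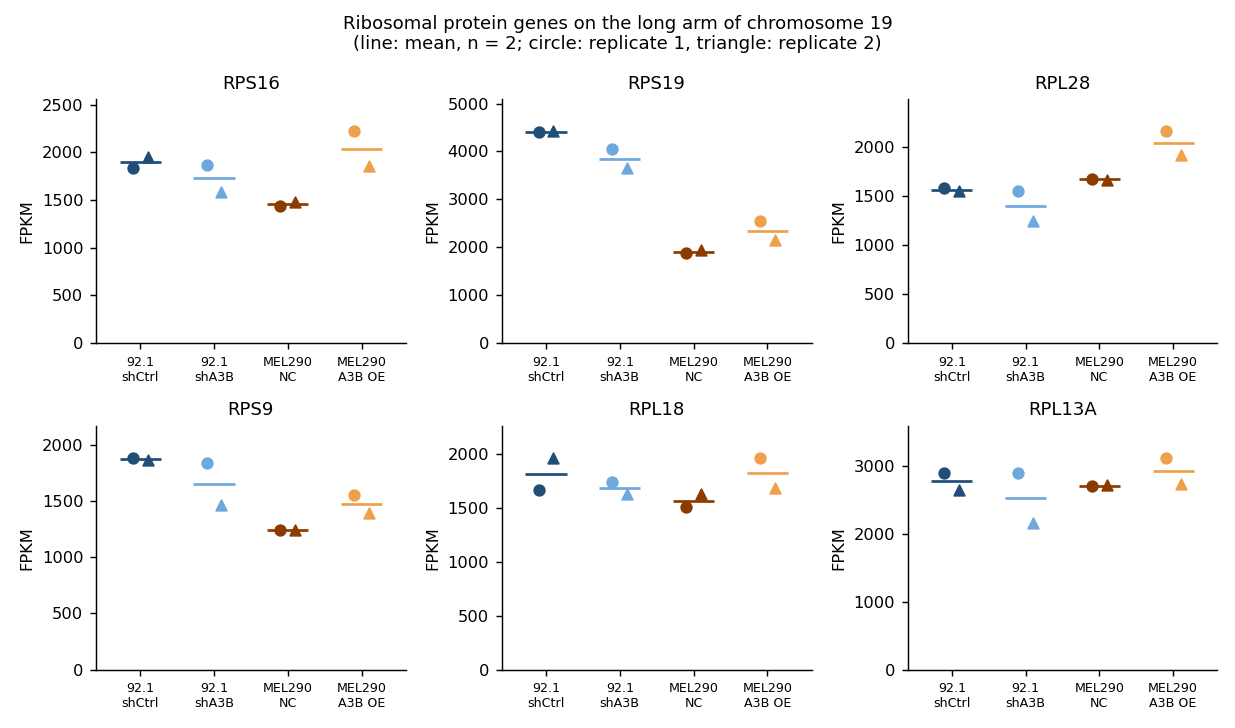
FPKM of 6 of the 8 ribosomal protein genes on the long arm of chromosome 19 in the 4 groups, with circles and triangles for the libraries and lines for the means (n = 2). In each panel both A3B OE libraries lie above both NC libraries, while the shA3B mean lies below the shCtrl mean without a called difference.

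In 92.1 the same 8 genes went the other way by sign, with log2 fold changes from -0.20 to -0.11 and a median of -0.14. The libraries of 3 of them did not overlap in the lower direction, against 13.3% of all genes. Of the other 69 members there, 42 were negative and 27 positive, with a median of -0.01. The 4 on the short arm had a median of -0.13, with 3 negative, and the 4 on chromosome 9 had -0.13, all negative. With GC content and length accounted for, the median in 92.1 was -0.13 for the 8 genes of the long arm, with 0 positive. It was -0.05 for the other 69 members, with 12 positive, so that most members were negative there as well. No member was called in 92.1. The difference between the effects in the lines, tested in 1 fit over all 8 libraries, was not called for any member, against 4.4% of the 12697 genes tested (3.06% higher, 1.35% lower), and 7 members had an unadjusted p under 0.05. It was largest for RPS16, at 0.61 (standard error 0.16, adjusted p = 0.082, limma), followed by RPS19 at 0.50 (standard error 0.14, adjusted p = 0.10). For all 8 genes of the long arm it was positive, with a median of 0.40. Of the other 69 members, 27 were positive and 42 negative, with a median of -0.03. The 4 on the short arm were all positive as well, with a median of 0.13. The genes of the long arm were grouped with their MEL290 fold changes known. Those fold changes enter this difference, so its sign in these genes is not separate evidence. With quantile normalization RPL28, RPS16 and RPS19 were called, and with GC content and length accounted for RPS16, RPS19 and RPS9 were.

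Most members differed between the control groups of the lines. In NC 53 members were called lower than in shCtrl (68.8%, against 39.3% of the 12352 genes tested) and 7 higher (9.09%, against 33.7%), and 17 were not called, where 73% of all genes were called in either direction. With quantile normalization 50 were lower and 14 higher. The libraries did not overlap for 10 members higher and 58 lower in NC, against 40.7% and 46.6% of all genes. Among the called members, 22 were lower by at least 1 on the log2 scale and 1 was higher by as much. The share of all genes past this step was not taken, so these counts only describe the members. The median log2 difference was -0.48, against -0.08 over all genes. It was -0.85 for the small and -0.45 for the large subunit, and -0.67 and -0.50 with GC content and length accounted for. Cell line and control vector cannot be told apart in this comparison. Across the 77 genes the difference had a Spearman correlation of 0.02 with transcript length and -0.19 with GC content.

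RPS28, a short protein of the small subunit near the mRNA exit, was lowest in NC relative to shCtrl. It was at 1529 and 2630.4 FPKM in shCtrl and 296 and 234 in NC (log2 difference -2.93, standard error 0.27, adjusted p = 0.00025, limma), 7.59-fold lower. RPS29, a zinc-binding small-subunit protein, was at 4558 and 3271 against 771 and 993 (-2.14, standard error 0.19), and RPS14, whose loss is linked to the anemia of deletions on chromosome 5, was at 2374 and 2806 against 653 and 653 (-1.98, standard error 0.09). All 3 are small-subunit genes, and their groups were far apart. RPS27A, made as a fusion with ubiquitin, was at 2149.7 and 1829 against 518 and 515 (-1.94, standard error 0.09), and RPL37A was at 3319.6 and 3215 against 927 and 905 (-1.83, standard error 0.06).

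RPL26, a large-subunit protein placed near the exit tunnel, was the member most above its 92.1 level. It was at 1005 and 923 FPKM in shCtrl and 2312 and 2287 in NC (log2 difference 1.25, standard error 0.07, adjusted p = 4.5e-05, limma), 2.39-fold higher. RPL4 was at 1729 and 1432 against 2813 and 2917 (0.86, standard error 0.10), and RPS24, with a splice-variable C-terminus, was at 1332 and 1235 against 2316 and 2276 (0.84, standard error 0.07). RPS25 (0.71), RPL24 (0.51), RPL5 (0.24, adjusted p = 0.041, limma) and RPL17 (0.17, adjusted p = 0.048, limma) were also called higher. RPL17 was at 0.03 with GC content and length accounted for. Without the variance trend, and with no filter on low values, 5 members were called higher. RPL26 stayed at 2224 and 2105 in A3B OE and at 958 and 1014 in shA3B, close to the control level of each line.

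**Figure D5:**
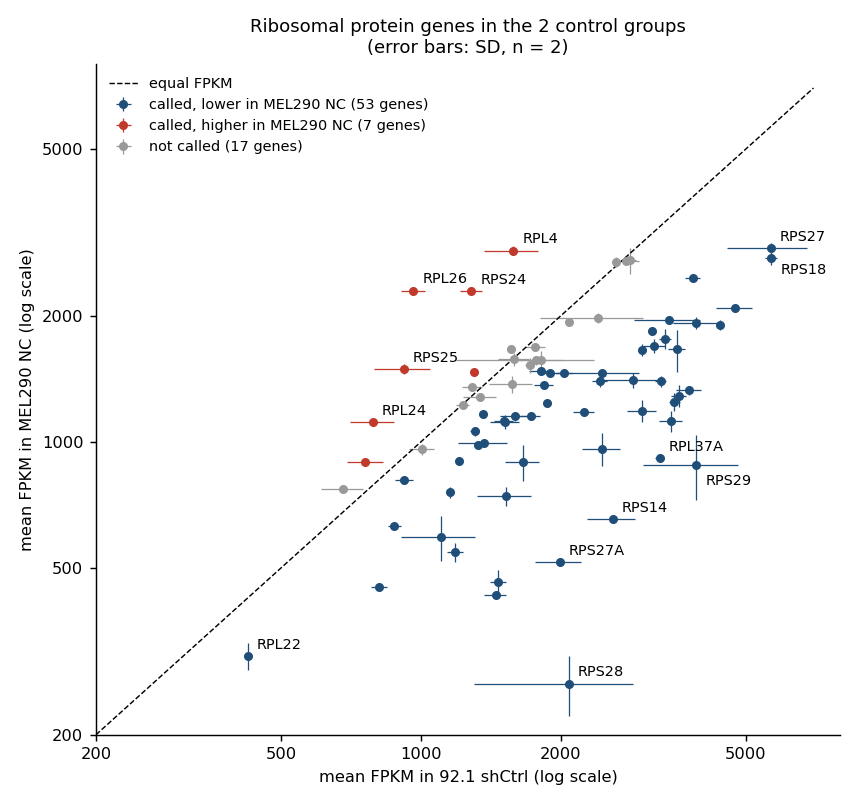
Mean FPKM of the 77 ribosomal protein genes in MEL290 NC against 92.1 shCtrl, both axes on a log scale, with SD (n = 2) and colours for the limma call. Most points lie below the line of equal FPKM (53 called lower), and 7 called genes, led by RPL26 and RPL4, lie above it.

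The stalk genes and RPSA were all called lower in NC than in shCtrl, as were 68.8% of the members and 39.3% of all genes. RPLP0 was at 3615 and 4209 FPKM in shCtrl and 1974 and 1878 in NC (log2 difference -1.02), RPLP1 at 1558 and 1755 against 834 and 957 (-0.89), RPLP2 at 3824 and 3034 against 1932 and 1985 (-0.80), and RPSA at 1662 and 1783 against 1142 and 1166 (-0.58). Neither perturbation gave a call for them. In 92.1 both shA3B libraries lay below both shCtrl libraries for RPLP0 (-0.16), RPLP1 (-0.19) and RPSA (-0.15), while RPLP2 (-0.12) overlapped. In A3B OE, RPLP0 was at 2057 and 1913, RPLP1 at 1050.4 and 874, RPLP2 at 2039 and 1707, and RPSA at 1371 and 1233, the last above both NC libraries (0.17, standard error 0.07, adjusted p = 0.16, limma).

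FAU, which encodes a further ribosomal protein as a fusion to a ubiquitin-like protein and is not caught by the symbol rule, was lower in NC as well. It was at 885 and 922 FPKM in shCtrl and 621 and 616 in NC (-0.55, adjusted p = 0.00065, limma), and it was not called in 92.1 or MEL290. Among 8 paralogs of ribosomal protein genes, 6 could be tested, RPL10L was listed at 0 in all libraries and RPL3L stayed near 0. In A3B OE, RPL39L rose from 13.6 and 10.9 to 21.9 and 20.4 FPKM (0.74, adjusted p = 0.015, limma), and RPL22L1 fell from 167 and 159 to 112 and 117 (-0.51, adjusted p = 0.0069, limma), while RPL22 itself was not called (-0.02). RPL39L was not called with no filter on low values (adjusted p = 0.070, limma) or without A3B OE replicate 1 or 2 (0.082 and 0.067). RPS27L, a paralog of RPS27, was at 39.9 and 39.1 in shCtrl and 159 and 157 in NC (1.97). Values of ribosomal protein genes and their paralogs are uncertain where reads fit several copies, including processed pseudogenes.

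Among other genes of translation, none of the listed genes was called in 92.1, and those called in MEL290 follow. Of 16 tested translation factors and other genes with TOP mRNAs, 2 were called higher in A3B OE, HNRNPA1 (0.39) and NAP1L1 (0.33), and 2 lower, EIF3E (-0.34) and EEF1B2 (-0.27), where 17.8% of all genes were called. Each of these calls was lost in some settings, with a highest adjusted p (limma) of 0.052 for HNRNPA1, 0.11 for NAP1L1 and 0.21 for EEF1B2 without NC replicate 2, and of 0.068 for EIF3E without NC replicate 1. Of 42 ribosome biogenesis genes, FBL and NCL were called higher and EIF6 lower (0.74, 0.33 and -0.38). The calls of NCL and EIF6 were also lost in some settings, with a highest adjusted p (limma) of 0.099 for NCL without NC replicate 2 and of 0.073 for EIF6 with no filter on low values, whereas that of FBL was 0.037. FBL, the methyltransferase of ribosomal RNA, was at 179 and 187 FPKM in NC and 323 and 291 in A3B OE (adjusted p = 0.0036, limma), lies on the long arm of chromosome 19 at chr19:39834458-39846379, and was called for the difference between the lines (0.80, adjusted p = 0.015). Of 11 regulators, MYC, a driver of ribosome biogenesis, was called lower, from 121 and 121 to 87.7 and 72.8 FPKM (-0.60, adjusted p = 0.013, limma), and its adjusted p was 0.070 with no filter on low values. Of 78 mitochondrial ribosomal protein genes, 1 was called higher and 2 lower in A3B OE, against 10.3% and 7.49% of all genes. In NC against shCtrl 12 of them were called higher and 41 lower, against 33.7% and 39.3% of all genes. Their median there was -0.29, against -0.08 over all genes.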

How the data were processed

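Total RNA of 92.1 and MEL290 cells was sequenced in 8 libraries. The authors mapped the reads with STAR on GRCh38 and deposited FPKM values per gene symbol from Cufflinks, with Ensembl release 75 named as annotation. FPKM is divided by transcript length and mapped fragments, so counts were not used and no counting error is given. Depth was estimated roughly from genes with 1 transcript and an FPKM of 0.001 to 0.1.

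Values were taken as log2(FPKM + 1), where a pseudocount of 1 understates changes of low genes. Genes with at least 1 FPKM in at least 2 libraries were tested with limma 3.58.1 in R 4.3.3 (lmFit, eBayes with trend, Benjamini-Hochberg threshold 0.05), separately in 92.1, MEL290 and the control groups, and over all 8 libraries for the difference between lines. With 2 libraries against 2, an exact two-sided permutation test cannot give a p below 0.33. The test was checked on simulated data. Positions, GC content and length came from GENCODE release 44, matched by symbol for all 77 members.

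Members and lists were chosen with earlier results of these data known. Named were the 5 highest and 5 lowest members by mean FPKM, in each comparison the 5 largest called changes each way (or the 3 largest where fewer than 3 were called), the stalk genes and RPSA, a gene outside the symbol rule, paralogs and regulators, and the largest called changes of the other lists. The members on the long arm of chromosome 19 and those with a short-arm or replicate result were chosen after their values were seen. Alternatives were limma without the trend, 3 scalings, 2 filters, a pseudocount of 0.1, 1 fit over 8 libraries, the replicate number as a block, removal of a GC and length trend, and each library left out. A few genes that entered the counts, medians and shares are not reported by name here and were left out of plots with gene labels.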

Additional observations from a re-analysis of the deposited data

How the results depend on the processing

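The libraries number 2 per group and FPKM carries no counts, so that small differences cannot be resolved. The count of 0 members called in 92.1 held under every alternative run. In MEL290, where 2 members were called, 0 were called by limma without the trend and 0 with no filter on low values, 15 with quantile normalization (6 higher, 9 lower), 4 with upper quartile scaling, 4 with scaling on genes outside the set, 1 with all 8 libraries in 1 fit, 13 with GC content and length accounted for (8 higher, 5 lower), and 1 to 7 with a library left out, 7 being without A3B OE replicate 2. For the difference between the lines, 3 members were called with quantile normalization and 3 with GC content and length accounted for, against 0. The cause was not tested.

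The median difference between the controls was -0.39 with quantile normalization, -0.39 with scaling on genes outside the set and -0.58 with GC content and length accounted for, and -0.54 to -0.50 with a library left out. The median in MEL290 lay between -0.068 and 0.045 when single libraries were dropped, turning positive without A3B OE replicate 2, and that in 92.1 between -0.084 and -0.014. The share of the summed FPKM in shCtrl, shA3B, NC and A3B OE was 30.7%, 30.2%, 21.4% and 21.2% with the 20 highest other genes left out of the total, and 29.8%, 29.5%, 19.6% and 19.1% without the mitochondrially encoded genes. When single libraries were dropped it was 25.0% to 25.5%, 24.4% to 24.9%, 16.8% to 17.3% and 16.8% to 17.1%. The log2 fold change of RPL13A in MEL290 was -0.025 with quantile normalization. Dropping single 92.1 libraries gave -0.033 to 0.34 for RPL38, -0.067 to 0.34 for RPL7 and -0.0064 to 0.26 for RPS13.

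The replicate numbers were not shown to pair the libraries. The deviations from the group means correlated between libraries of the same number at 0.193 for 92.1 and -0.029 for MEL290, across all genes tested. Over the 77 members alone the values were 0.50 for 92.1, with the same sign in 46 genes, and -0.14 for MEL290. With the replicate number as a block, 0 members were called in 92.1 and 1 in MEL290.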
